A study of Mus musculus with 6 samples.

Results

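The Schlafen genes Slfn1, Slfn2, Slfn3, Slfn4, Slfn5, Slfn8 and Slfn9 were taken by their symbols from the deposited table, which made 7 of its 57180 genes, and all 7 had enough counts to be tested. RNA was sequenced from natural killer (NK) cells of fibrotic mouse liver that had been sorted by CD36, a scavenger receptor that takes up fatty acids, with 3 libraries titled CD36+ NK and 3 titled CD36- NK. The comparison asks how the transcripts of NK cells with CD36 on their surface differ from those of NK cells without it. All mice of both groups were wild-type male C57BL/6J animals aged 6 to 8 weeks, and all had received CCl4, a hepatotoxin that causes fibrosis, as 2.5 ml/kg of a 20% solution in 2 intraperitoneal injections per week for 4 weeks. Livers were taken 48 h after the last injection, and CD36+ and CD36- NK cells were sorted by flow cytometry. The study defines liver NK cells as CD3- NK1.1+ in its flow cytometry, and whether the sorted cells were gated in this way is not given in the sources used here. No library of an untreated mouse was used here. The labels do not say how many animals gave each library or whether libraries shared animals, so the p-values measure only the spread between these libraries.

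Schlafen genes are found in mammals as a cluster of similar genes that many cell types raise in response to type I interferon. The short members Slfn1 and Slfn2 are known as brakes on lymphocyte growth, and loss of Slfn2 takes T cells out of quiescence. The intermediate members Slfn3 and Slfn4 have been studied in the gut epithelium, T cells and myeloid cells, and the long members Slfn5, Slfn8 and Slfn9 carry an additional helicase-like part and belong to a family with RNA-cutting members.

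In the table's coordinates, whose genome build is not named, the 7 genes lie on chromosome 11 in a cluster that runs with Slfn14 from 82842175 to 83177552 (335378 bases). Slfn5 (ENSMUSG00000054404, plus strand) spans 82842175 to 82855666. It is followed on the minus strand by Slfn9 (ENSMUSG00000069793) from 82869216 to 82882656 and Slfn8 (ENSMUSG00000035208) from 82892984 to 82911636. The plus strand then carries Slfn2 (ENSMUSG00000072620) from 82955938 to 82961504, Slfn1 (ENSMUSG00000078763) from 83007675 to 83013496, Slfn4 (ENSMUSG00000000204) from 83066012 to 83081042 and Slfn3 (ENSMUSG00000018986) from 83082156 to 83105980. In GENCODE M21 the longest coding sequences hold 337 codons in Slfn1, 378 in Slfn2, 602 in Slfn4, 640 in Slfn3, 884 in Slfn5 and 910 in both Slfn8 and Slfn9.

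How alike the members are limits how well short reads separate them. Aligned coding sequences were 92.7% identical between Slfn8 and Slfn9, 92.1% between Slfn3 and Slfn4 and 70.3% between Slfn1 and Slfn2. Windows of 50 bases were taken from the transcript of each gene with the longest coding sequence. Slfn3 shared 21.8% of its windows exactly with another gene, Slfn8 15.4%, Slfn9 11.4%, Slfn4 11.1%, Slfn2 4.27%, Slfn5 3.59% and Slfn1 0.61%. At 100 bases the shares ran from 0% in Slfn1 to 4.93% in Slfn3, and that of Slfn3 was with 1 gene outside the 7 members. The 50-base windows of Slfn5 were shared with 343 genes, none of them another member. Those of Slfn3 were shared with 3 genes, of which Slfn1 and Slfn4 are members. These shares thus do not measure likeness between members alone. How fragments that fit more than 1 gene were assigned is not given in the sources used here, so the split of counts within Slfn8 and Slfn9 and within Slfn3 and Slfn4 is uncertain. Stretches of 90 coding bases, given 5′ to 3′ on the coding strand (GENCODE M21, GRCm38), show this likeness, and capitals mark the bases at which the 2 genes of a pair differ, at 7 positions in Slfn8 and Slfn9 (coding bases 1051 to 1140 of both), at 7 in Slfn3 (1681 to 1770) and Slfn4 (1549 to 1638), and at 28 in Slfn1 (573 to 662) and Slfn2 (684 to 773).
Slfn8: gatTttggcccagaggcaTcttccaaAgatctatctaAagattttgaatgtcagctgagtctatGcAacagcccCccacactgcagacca
Slfn9: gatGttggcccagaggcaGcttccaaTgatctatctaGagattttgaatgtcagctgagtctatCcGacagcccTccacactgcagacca
Slfn3: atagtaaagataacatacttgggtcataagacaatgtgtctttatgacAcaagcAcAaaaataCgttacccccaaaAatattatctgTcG
Slfn4: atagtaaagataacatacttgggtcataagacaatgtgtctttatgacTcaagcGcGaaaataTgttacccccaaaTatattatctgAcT
Slfn1: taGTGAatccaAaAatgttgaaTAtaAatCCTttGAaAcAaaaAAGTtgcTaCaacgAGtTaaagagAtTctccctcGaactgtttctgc
Slfn2: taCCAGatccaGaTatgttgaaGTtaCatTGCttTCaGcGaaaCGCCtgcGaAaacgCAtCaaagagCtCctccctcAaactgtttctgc

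Total counts per library ran from 10292480 to 13787189, and 14761 genes were tested with edgeR. Cd36 was higher in each library titled CD36+ NK (log2 fold change 3.27, SE 0.43, edgeR adjusted p = 0.00615). The marker genes of other cell types and of NK cells differed between the groups, so levels are those of the sorted fractions. In bulk libraries like these, fewer cells of a type and less RNA per cell cannot be told apart. All 11 NK cell markers tested, among them Gzma, Prf1, Eomes and Klrb1c, were lower in CD36+ NK (median on the log2 scale -2.46), with summed levels of 1080 to 1306 CPM (counts scaled to a common normalized library size) against 5650 to 7356 CPM in CD36- NK. Of 10 macrophage and Kupffer cell markers tested of 12, 4 (Cd68, Marco, Csf1r and Adgre1) were called higher and all 10 had positive fold changes (median 2.89, 2499 to 6104 against 425 to 1531 CPM). CD36+ NK replicate 1 stood apart from the other libraries, with summed T cell markers at 441 CPM beside 46.7 to 180 elsewhere (Cd3e at 303 counts beside 1 to 12) and summed erythroid markers at 584 CPM beside 58.0 to 295. The part of these markers in the Schlafen values was not tested.

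None of the 7 Schlafen genes was called between the groups, with or without CD36+ NK replicate 1. A gene was called when its edgeR adjusted p was below 0.05 and its fold change above 2, which held for 2.98% of all tested genes as higher in CD36+ NK, for 2.98% as lower and for 5.96% in either direction, and here for 0 of the 7 in either direction. An adjusted p below 0.05 at any fold was likewise reached by 0 of the 7 and by 10.5% of all tested genes. DESeq2 and edgeR's exact test also called 0 of the 7, and with each of the 3 tests 1 of the 7, Slfn9, had an unadjusted p below 0.05, which 26.3% of all genes had with the edgeR quasi-likelihood test. The CPM of the groups overlapped for each of the 7, while 32.8% of all tested genes had groups without overlap, 17.0% with CD36+ NK higher and 15.7% with it lower. Fold changes of CD36+ NK over CD36- NK were above 0 on the log2 scale for 4 members and below 0 for 3, with a median of 0.01 beside 0.01 over all genes. The 95% intervals of Slfn1, Slfn2, Slfn3, Slfn5 and Slfn8 lay within a 2-fold change in either direction, and those of Slfn4 and Slfn9 reached past it.

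**Figure D1:**
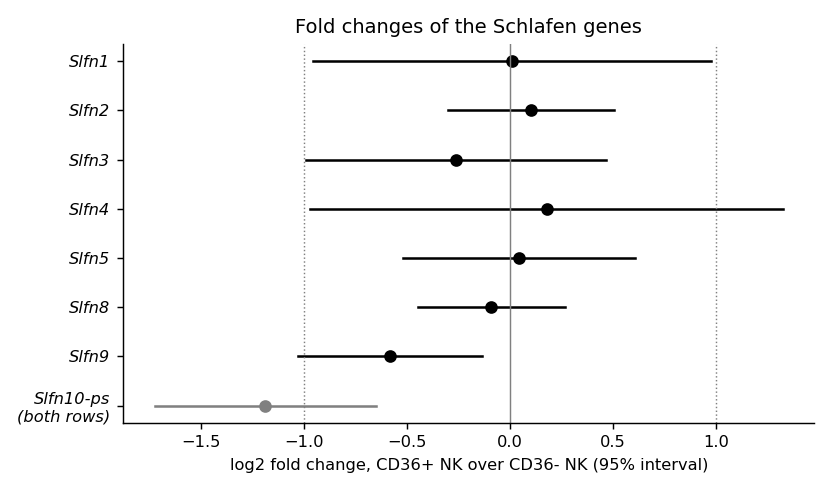
The log2 fold change of CD36+ NK over CD36- NK (horizontal axis) with its 95% interval from the edgeR fit is drawn for each of the 7 genes in black and for the 2 rows of Slfn10-ps together in grey, with dotted lines at a 2-fold change. The intervals of 6 of the 7 genes cross 0, and that of Slfn9 runs from -1.03 to -0.13.

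Levels per gene length, as FPKM (fragment counts divided by gene length and library total), put Slfn2 far above the rest. Over the 6 libraries the mean FPKM was 143 for Slfn2, 24.9 for Slfn1, 15.1 for Slfn5, 11.9 for Slfn8, 7.85 for Slfn4, 2.66 for Slfn9 and 1.57 for Slfn3. Each gene stood above the next in 6, 5, 5, 5, 6 and 6 of the 6 libraries, in that order. This order rests on the gene lengths behind the FPKM. In total counts, Slfn5 (8212), Slfn8 (6206) and Slfn4 (4421) stood above Slfn1 (3303). The FPKM ranges of Slfn2 and Slfn1 did not overlap, and those of every other pair of neighbours in the order did. Slfn2 gave 70.3% ± 3.75 (SD, n = 3) of the summed Schlafen FPKM in CD36+ NK and 68.6% ± 2.21 in CD36- NK. Of the summed Schlafen counts, which are not divided by length, it gave 42.5% ± 2.49 and 40.5% ± 2.64. The share of Slfn9 was 1.02% ± 0.19 in CD36+ NK and 1.65% ± 0.56 in CD36- NK (two-sided exact permutation test over the libraries, p = 0.2). For none of the 7 shares was this p below 0.2, and 3 libraries against 3 cannot give a p below 0.1.

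**Figure D2:**
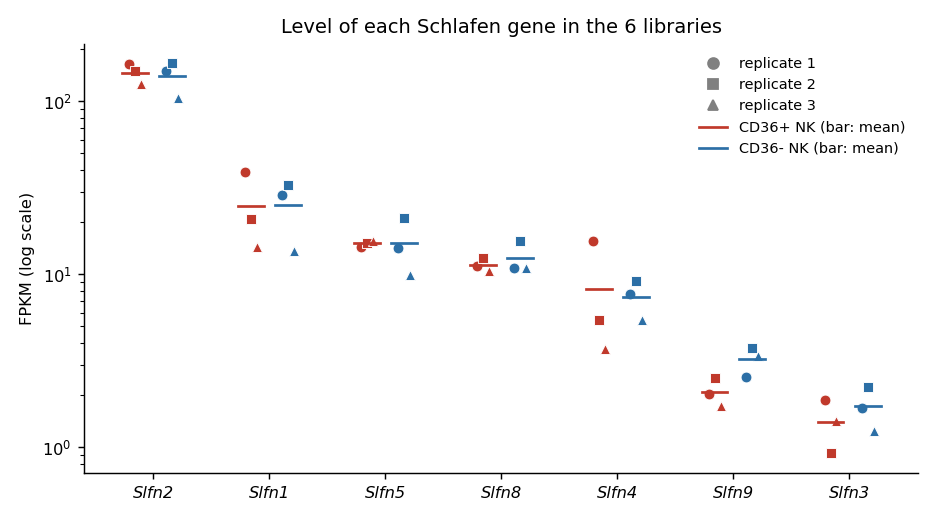
FPKM on a log scale (vertical axis) is drawn for each Schlafen gene in each library, with CD36+ NK in red, CD36- NK in blue, a symbol for each replicate and a bar at each group's mean. Slfn2 sits between 104 and 165 FPKM in all 6 libraries, above every value of the other 6 genes, and the groups overlap in each gene except Slfn9, whose highest CD36+ NK value, 2.51 FPKM, is just below its lowest CD36- NK value, 2.56 FPKM.

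Slfn2, the short member that keeps T cells in quiescence, had 268, 252 and 219 CPM in CD36+ NK replicates 1, 2 and 3 and 248, 267 and 174 CPM in CD36- NK replicates 1, 2 and 3. The lowest library was CD36- NK replicate 3, and the other 5 libraries of both groups lay close together. For Slfn2 the log2 fold change was 0.10 (SE 0.17, 95% interval -0.30 to 0.50, edgeR adjusted p = 0.771). Without CD36- NK replicate 3 it was -0.07, and without CD36- NK replicate 2 it was 0.22.

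Slfn1, the other short member, whose forced expression has been linked to growth arrest, varied far more between libraries. It had 71.8, 39.5 and 27.9 CPM in CD36+ NK and 52.8, 59.6 and 25.6 CPM in CD36- NK. Both groups thus held a low and a high library, with 2.57-fold and 2.33-fold between their extremes. Its log2 fold change was 0.01 (SE 0.41, 95% interval -0.96 to 0.98, edgeR adjusted p = 0.993), and it was -0.46 without CD36+ NK replicate 1, -0.28 without CD36- NK replicate 3 and 0.27 without CD36+ NK replicate 3. Slfn1 and Slfn2 counted together gave a log2 fold change of 0.08 (SE 0.21), which was -0.05 without CD36+ NK replicate 1, -0.11 without CD36- NK replicate 3 and 0.23 without CD36- NK replicate 2.

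Slfn4, which myeloid cells raise on interferon and Toll-like receptor signals, had the widest spread of the family. Its levels were 124, 44.6 and 31.1 CPM in CD36+ NK and 60.8, 71.5 and 43.8 CPM in CD36- NK. CD36+ NK held both the highest and the lowest of the 6 libraries, 3.99-fold apart, and CD36- NK lay between them with a 1.63-fold range. The log2 fold change of 0.18 (SE 0.49, 95% interval -0.97 to 1.33, edgeR adjusted p = 0.864) rested on CD36+ NK replicate 1, without which it was -0.64 (adjusted p = 0.159), and it was 0.52 without CD36+ NK replicate 3. Between replicates, the biological coefficient of variation reached 41.3% for Slfn4, at the 94th percentile of all tested genes, and 35.5% for Slfn1, at the 92nd, beside a median of 16.7% over all genes. The summed level of 11 neutrophil markers, of which 0 were called, was 5678, 943 and 1200 CPM in the CD36+ NK libraries and 4730, 2675 and 1955 CPM in the CD36- NK libraries. CD36+ NK replicate 1 was thus the highest library for Slfn4, for Slfn1 and for these markers, as it was for the T cell and erythroid markers given above. It was also the highest for the summed platelet markers (24.9 CPM). Every other marker list was highest in another library, among them the monocyte markers, at 2598 CPM in CD36- NK replicate 1 beside 2320 CPM in CD36+ NK replicate 1. The part of any of these lists in the spread of both genes was not tested.

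Slfn3, the near copy of Slfn4 in sequence, was the least expressed member and had 57 to 110 counts per library. Its levels were 8.28, 4.19 and 6.65 CPM in CD36+ NK and 7.53, 9.73 and 5.57 CPM in CD36- NK. The highest library was CD36- NK replicate 2 and the lowest CD36+ NK replicate 2, and the groups overlapped. For Slfn3 the log2 fold change was -0.26 (SE 0.31, 95% interval -0.99 to 0.47, edgeR adjusted p = 0.659), and it was -0.51 without CD36+ NK replicate 1 and -0.03 without CD36+ NK replicate 2. Counted together, Slfn3 and Slfn4 gave 0.14 (SE 0.47), with -0.63 without CD36+ NK replicate 1, -0.04 without CD36- NK replicate 3 and 0.45 without CD36+ NK replicate 3.

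Slfn5, a long member that in human cells is a nuclear regulator of interferon-induced genes, was nearly level in CD36+ NK. It had 108, 117 and 123 CPM there and 106, 156 and 75.7 CPM in CD36- NK. The 3 CD36+ NK libraries lay within 1.14-fold of each other and inside the 2.06-fold range of CD36- NK. Between the groups, Slfn5 had a log2 fold change of 0.04 (SE 0.24, 95% interval -0.52 to 0.61, edgeR adjusted p = 0.936), and it was -0.01 without CD36- NK replicate 1, -0.18 without CD36- NK replicate 3 and 0.35 without CD36- NK replicate 2 (adjusted p = 0.227). The table also lists Slfn5os, an antisense gene that overlaps Slfn5, at 0 counts in every library, and whether counting used the strand is not given in the sources used here.

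Slfn8, which the table's KEGG column places with Slfn9 under transfer RNA biogenesis, was the steadiest member. It had 80.5, 92.0 and 79.9 CPM in CD36+ NK and 78.3, 110.9 and 79.8 CPM in CD36- NK. Except for CD36- NK replicate 2, the libraries of both groups lay between 78.3 and 92.0 CPM. The log2 fold change was -0.09 (SE 0.15, 95% interval -0.45 to 0.27, edgeR adjusted p = 0.767), and it was 0.09 without CD36- NK replicate 2 and -0.19 without CD36- NK replicate 1.

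Slfn9 had the largest absolute fold change of the 7. Its levels were 15.9, 20.09 and 14.4 CPM in CD36+ NK and 19.99, 28.8 and 26.9 CPM in CD36- NK. The groups overlapped in CPM only because CD36+ NK replicate 2 stood just above CD36- NK replicate 1. In the authors' FPKM they did not overlap, with 2.04, 2.51 and 1.74 in CD36+ NK and 2.56, 3.76 and 3.38 in CD36- NK, so the overlap depended on how the libraries were scaled. The mean was 16.8 ± 2.95 CPM (SD, n = 3) in CD36+ NK and 25.2 ± 4.64 CPM in CD36- NK, for a log2 difference of -0.58 (SE 0.19, 95% interval -1.03 to -0.13). It did not pass the threshold (unadjusted p = 0.0178, edgeR adjusted p = 0.1003), and over 16 alternative settings the adjusted p ran from 0.0596 to 0.275 while the fold change stayed below 0. The ratio of Slfn9 to its near copy Slfn8 was lower in each CD36+ NK library than in any CD36- NK library, as were its ratios to Slfn2 and to Slfn5. The log2 ratio of Slfn8 to Slfn9 was higher by 0.50 in CD36+ NK, that of Slfn5 to Slfn9 by 0.68 and that of Slfn2 to Slfn9 by 0.70. These were 3 of the 21 pairs of members compared, each with a two-sided exact permutation p = 0.1, the smallest that 3 against 3 libraries allow, and 0.7 after Benjamini-Hochberg adjustment over the 21 pairs.

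**Figure D3:**
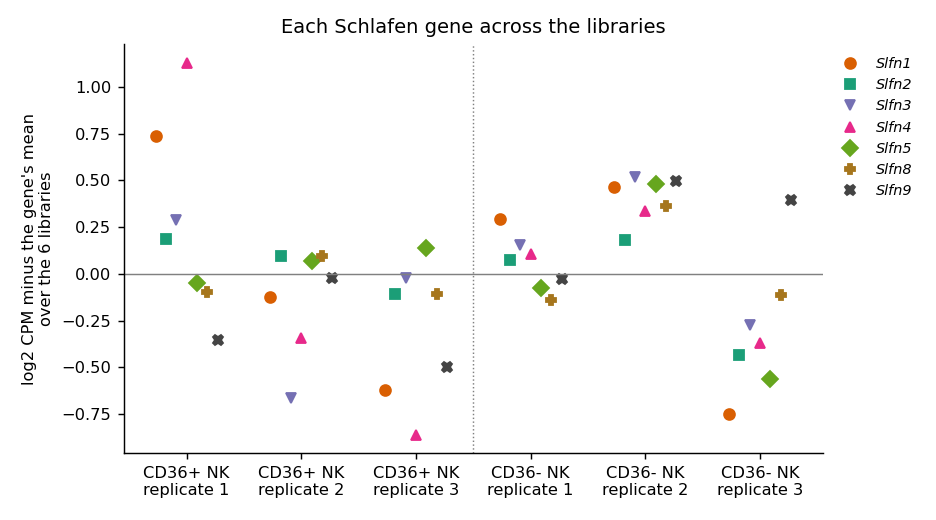
The log2 CPM of each gene in each library minus that gene's mean over the 6 libraries (vertical axis) is drawn with a symbol and colour for each gene, CD36+ NK left of the dotted line and CD36- NK right of it. Slfn4 ranges from 1.13 in CD36+ NK replicate 1 to -0.86 in CD36+ NK replicate 3, and Slfn9 is below 0 in all 3 CD36+ NK libraries and, at -0.03, in CD36- NK replicate 1.

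The members did not share 1 pattern over the libraries. CD36+ NK replicate 1 was the highest library for 3 members (Slfn1, Slfn2 and Slfn4) and CD36- NK replicate 2 for the other 4. CD36- NK replicate 3 was the lowest for Slfn1, Slfn2 and Slfn5, and in the same library Slfn9 stood 0.40 above its own mean on the log2 scale. All 7 members counted together gave a log2 fold change of 0.03 (SE 0.20), and leaving out each library in turn gave -0.14 (without CD36- NK replicate 3) to 0.22 (without CD36- NK replicate 2), with -0.10 without CD36+ NK replicate 1. Of the 3 nearest tested genes before the cluster none was called, with log2 fold changes of 0.14 for Rffl, 0.02 for Rad51d and 0.16 for Nle1.

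Slfn10-ps, a pseudogene between Slfn8 and Slfn2, matters here because 19.7% of its 50-base windows are shared exactly with another gene, among them Slfn8 and Slfn9, and because it is 92.8% identical to Slfn8 and 93.1% to Slfn9 over their coding sequences. The table lists it in 2 rows on the minus strand of chromosome 11, ENSMUSG00000121398 from 82918956 to 82930868 and, inside it, ENSMUSG00000072621 from 82919681 to 82926992. The longer row held 22, 95 and 33 counts in CD36+ NK and 44, 187 and 81 in CD36- NK. The shorter row held 57, 0 and 79 counts in CD36+ NK and 127, 19 and 144 in CD36- NK. The shorter row held more counts than the longer one in 4 libraries and fewer in both replicate 2 libraries, and neither row passed the test on its own (log2 fold changes -1.23 and -1.14, edgeR adjusted p = 0.294 and 0.584).

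Added up, which was decided after these values were seen, the 2 rows held 7.03, 6.99 and 9.31 CPM in CD36+ NK and 13.1, 18.2 and 22.0 CPM in CD36- NK. All CD36+ NK libraries were below all CD36- NK libraries. The log2 fold change was -1.19 (SE 0.23, 95% interval -1.73 to -0.65, edgeR adjusted p = 0.0220), so the pseudogene as a whole was called lower in CD36+ NK. This call was lost without CD36+ NK replicate 2 (-1.12, adjusted p = 0.0870) and without CD36- NK replicate 3 (-1.02, adjusted p = 0.0667). Slfn8, Slfn9 and Slfn10-ps counted together gave a log2 fold change of -0.29 (SE 0.14), and Slfn8 and Slfn9 alone -0.19 (SE 0.15). Without CD36- NK replicate 2 these were -0.14 and -0.02, and without CD36- NK replicate 1 they were -0.41 and -0.30. Slfn14, a member known from platelets and red cells at the end of the cluster, had 0 to 20 counts per library, and the related Slfnl1 had 0 to 3, too few for a test.

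**Figure D4:**
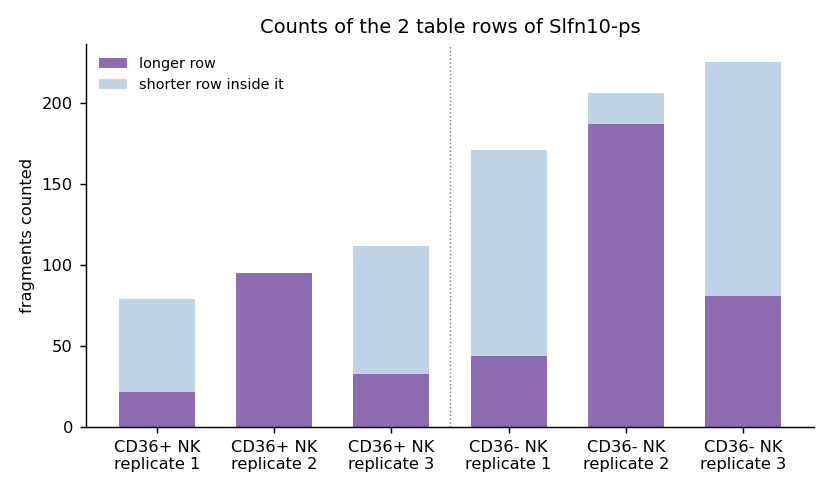
Stacked bars give the fragments counted (vertical axis, from 0) in the longer and the shorter table row of Slfn10-ps in each library. The split between the rows changes from library to library, while the total runs from 79 to 112 in the CD36+ NK libraries and from 171 to 225 in the CD36- NK libraries.

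Interferon is the signal best known to raise Schlafen genes, so its receptors, kinases, transcription factors and other targets were set beside them. Of 12 genes of interferon signalling tested, 0 were called higher and 1 lower in CD36+ NK, and their median log2 difference was -0.10. The 1 called gene was Jak1, a kinase bound to interferon and other cytokine receptors, at 569.7 ± 28.6 CPM in CD36+ NK and 1166 ± 148 CPM in CD36- NK (log2 fold change -1.03, SE 0.12, edgeR adjusted p = 0.00392). Without CD36- NK replicate 3 (1332 CPM) it was not called, since 0 of the 12 were. CD36- NK replicates 1 and 2, at 1118 and 1048 CPM, still stood above every CD36+ NK library (546 to 601 CPM). Tyk2, the partner kinase at the type I receptor, had a log2 fold change of -0.77 (SE 0.09, edgeR adjusted p = 0.00429), short of 2-fold.

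Of 20 other interferon-stimulated genes tested, 0 were called in either direction, and the median was -0.03 on the log2 scale. By mean CPM over all 6 libraries, though not in CD36- NK alone, the most expressed of them was Irgm1, an immunity-related GTPase. It had 83.6 ± 7.83 CPM in CD36+ NK and 71.2 ± 8.14 CPM in CD36- NK. Of 10 genes tied to lymphocyte quiescence, the state that Slfn2 upholds, 0 were called (median -0.09), and Btg1, a growth-restraining gene and the most expressed, stood at 1384 ± 58.9 and 1381 ± 224 CPM. Of 8 genes of transfer RNA cleavage and its control, 4 were tested (Ang, Rnh1, Nsun2 and Trdmt1) and 0 were called. Rnh1, the inhibitor of RNase A family enzymes, was the most expressed at 115 ± 2.54 and 110.3 ± 14.0 CPM.

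Promoters were searched for the letters to which interferon-activated factors bind. The core of the interferon-stimulated response element was searched as GAAANNGAA and the gamma-activated site as TTCNNNGAA, on both strands, in the 250 bases before and 50 after each RefSeq start (GRCm38.p6), and all 7 members had such a window. The first was present in Slfn5, Slfn8 and Slfn9, the long members, as well as in Slfn14 of the same cluster (starting 197 bases before its start), and in 8.56% of all 32851 windows. The second was present in none of the 7 and in 8.30% of all windows. Both motifs read from either strand, and a match is a description of letters, not of binding. The matched parts are given 5′ to 3′ on the strand of each gene, with the matches in capitals, because they are the feature that sets the promoters of the long members apart from those of Slfn1 to Slfn4 in this search. The Slfn5 stretch is chr11:82951923-82952002 on the plus strand, the Slfn8 stretch chr11:83020814-83020893 on the minus strand and the Slfn9 stretch chr11:82991831-82991910 on the minus strand, and the matches start 155 and 132 bases before the start of Slfn5, 47 before that of Slfn8 (135 before its other RefSeq start) and 44 before that of Slfn9.
Slfn5: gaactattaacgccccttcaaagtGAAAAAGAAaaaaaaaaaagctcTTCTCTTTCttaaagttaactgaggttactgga
Slfn8: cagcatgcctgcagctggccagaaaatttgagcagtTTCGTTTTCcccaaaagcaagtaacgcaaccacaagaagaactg
Slfn9: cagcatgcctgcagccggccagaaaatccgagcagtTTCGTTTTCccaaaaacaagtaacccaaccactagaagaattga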

How the data were processed

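The authors filtered reads with Seqtk, mapped them with HISAT2 2.0.4, obtained fragment counts for each gene from StringTie, and deposited these raw counts beside FPKM, without pooling libraries. The submitters' processing notes name the rat assembly mRatBN7.2, whereas the table carries mouse Ensembl identifiers, and of 51884 genes shared with GENCODE M21 (GRCm38) 1396 matched in coordinates. The table's coordinates and the reference sequences are thus of different builds. Groups follow the sample titles, since some library names carry the opposite CD36 sign. Broken lines of 2 genes were rejoined.

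The deposited counts were tested with edgeR 4.0.16 (limma 3.58.1, R 4.3.3): filterByExpr with a minimum count of 10, TMM, and the quasi-likelihood test over 14761 genes without a block, with Benjamini-Hochberg adjustment. Normalized levels are CPM. The authors' FPKM served only for levels between genes and shares, with exact permutation tests in scipy 1.17.1. The script was also tested on simulated counts, where most genes given a large change were recovered. That simulation gave every gene the same coefficient of variation, so it does not show what could be detected for genes as variable as Slfn1 and Slfn4. DESeq2 1.42.0, edgeR's exact test, other scalings, filters and fold thresholds, blocks, and leaving out each library were tried as alternatives. The members and all gene lists were chosen with earlier results of these data known. The genes named are the 7 members, from each list the genes called (up to 4 of lowest p in each direction) and, for pathways, the most expressed, the 3 nearest tested genes before the cluster, and the gene of most like pattern. Tyk2, Slfn10-ps, the other Schlafen genes, the T cell markers not called, Lrat and the other tested genes of transfer RNA cleavage were chosen after their values were seen. Some other genes are not reported here. No protein sequences were at hand, so identity was computed on coding sequences.

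Replicate numbers come from the titles. Table columns were matched to samples by library name, and because the library names numbered 1 and 2 in CD36- NK belong to the samples titled 2 and 3, a match by title would give other replicate numbers in CD36- NK, with the groups unchanged. The replicate block and the check of same-numbered libraries depend on this choice. The libraries within each group differed beyond sampling noise (chi-square per degree of freedom 13.5 to 26.5), so each was counted once.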

Additional observations from a re-analysis of the deposited data

How the results depend on the processing

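No member was called, and none had an adjusted p below 0.05, under any of the 16 alternatives. The sign of Slfn3 and Slfn9 was kept in all of them, with ranges of -0.51 to -0.03 and -0.74 to -0.48 when each library was left out in turn. The sign of the other members, whose fold changes were near 0, was not: the left-out ranges were -0.46 to 0.27 for Slfn1, -0.0708 to 0.22 for Slfn2, -0.64 to 0.52 for Slfn4, -0.18 to 0.35 for Slfn5 and -0.19 to 0.0904 for Slfn8. The deviations of same-numbered libraries correlated at 0.310 for replicate 1, whose libraries also share a form of name, but at 0.0515 and -0.0837 for replicates 2 and 3. CD36+ NK replicate 3 with CD36- NK replicate 2 gave 0.254, and CD36+ NK replicate 2 with CD36- NK replicate 3 gave 0.121. All other differently numbered libraries were below 0, down to -0.250. The numbers were thus not taken as pairs, and whether libraries shared animals was not tested. With the replicate number as a block, Slfn1 was at -0.00734 and Slfn4 at -0.0460, and with the form of the library name as a block at -0.0725 and -0.0597. Neither block changed the sign of another member. The genes called in the whole table went from 880 to 560 with the replicate block and to 912 with the name form. The count of interferon signalling genes called lower was 1, and 2 with no fold threshold or with a threshold of 1.5. Leaving out 1 library at a time gave 0 to 1. The summed rows of Slfn10-ps, an alternative chosen after seeing the data, kept their call under the block (adjusted p = 0.0261) and in DESeq2 (0.000212). The difference in the share of Slfn9 was -0.64 percentage points of FPKM, -1.69 of counts, and -0.33 of FPKM without CD36- NK replicate 3, the library with the highest share (2.28%). The spread of Slfn1 and Slfn4 left intervals near or past 2-fold, so differences of up to about that size lie within the intervals of both genes. What size of difference 3 libraries a group can detect was not tested.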

Other observations

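Over the 6 libraries, the genes whose centred log2 CPM lay nearest to each member were Svip for Slfn1 (root mean square distance 0.0929), Rnf5 for Slfn2 (0.0182), 4833408A19Rik for Slfn3 (0.124), Ptgfrn for Slfn4 (0.184), Sec61a2 for Slfn5 (0.0603), Trmu for Slfn8 (0.0479) and Mosmo for Slfn9 (0.0597). Among the members themselves the nearest pair was Slfn2 and Slfn5 (0.202) and the farthest Slfn4 and Slfn9 (0.714), while the near copies Slfn8 and Slfn9 were 0.293 apart and Slfn3 and Slfn4 0.510. With 6 libraries, such distances are descriptions of these samples.

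Other marker lists bear on what the sorted fractions held. All 8 B cell markers had positive fold changes and 0 were called (median log2 fold change 0.50, summed level 4863 to 5451 CPM in CD36+ NK and 3379 to 3857 CPM in CD36- NK). The 10 T cell markers summed to 441, 46.7 and 73.0 CPM in CD36+ NK replicates 1 to 3 and to 139, 91.2 and 180 CPM in CD36- NK replicates 1 to 3, so CD36+ NK replicate 1 was above all CD36- NK libraries and the other CD36+ NK libraries were below them. Cd3e, Cd3d, Cd3g, Trac and Trbc2 followed this order, while Cd4 and Cd8a, the 2 genes called higher, were higher in each CD36+ NK library than in any CD36- NK library. Cd5, Cd8b1 and Cd28 did neither, and Cd28 had a log2 fold change of -1.52 (edgeR adjusted p = 0.163). Of 10 monocyte markers 2 were called higher (Cd14 and Clec4e) and 1 lower (Ccr2), and of 8 dendritic cell markers 2 were called higher (Xcr1 and Clec9a) and 1 lower (Itgax). Called higher were 3 of 6 erythroid markers (Alas2, Hbb-bs and Hba-a1), 2 of 3 platelet markers tested (Ppbp and Pf4), 1 of 3 stellate cell markers tested (Pdgfrb), with Lrat at 0 in every library, and 0 of 4 liver endothelial markers tested. None of the 6 hepatocyte markers had enough counts to be tested, with summed levels of at most 10.9 CPM.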
